A study of Bos taurus with 36 samples.

Results

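The hearts of 9 bovine fetuses were examined for genes whose level rose or fell with the weight of the fetus. A gene entered where 4 or more of the 9 heart libraries held 10 or more of its counts, which kept 16250 of the 35092 genes in the count table (22766 had at least 1 count in a heart). The weight in the sample labels entered the fit as a straight line, so each gene has 1 slope, given as log2 units per 0.1 g of fetal weight. At a Benjamini-Hochberg adjusted p-value under 0.05 in edgeR's quasi-likelihood test, 849 genes rose (5.22%) and 251 fell (1.54%) with weight, together 6.77% of those tested.

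The series holds 36 libraries, made on Day 42 of gestation from 3 organs (heart, gonads and liver) of 10 male fetuses and from the blood of their recipient heifers. Each embryo was 7 days old at transfer. In the synchronous group, ET_D7, it was placed in the uterus on Day 7 of the recipient's cycle (5 hearts), and in the asynchronous group, ET_D9, on Day 9 of the cycle (4 hearts). Each heart library came from another fetus. The fetuses are numbered here by weight. Fetuses 1 to 5 belonged to ET_D7 and weighed 1.253, 1.293, 1.346, 1.355 and 1.37 g, whereas fetuses 6, 8, 9 and 10 belonged to ET_D9 and weighed 1.396, 1.565, 1.659 and 1.69 g, with no heart library analysed here for fetus 7. Every ET_D9 fetus with a heart library was thus heavier than every ET_D7 fetus, and within this set weight and transfer group cannot be told apart.

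Adult heart muscle works almost without pause and makes most of its ATP in mitochondria, by oxidative phosphorylation. In the mouse embryo, the paper states, heart muscle cells have immature mitochondria and gain their ATP by anaerobic glycolysis. The shift to mitochondrial respiration comes between the embryonic and the fetal stage. The paper proposes that oxidative phosphorylation is already under way in the bovine fetal hearts sampled. The respiratory chain draws on both genomes of the cell, as a few central subunits are encoded in mitochondrial DNA and all the others in the nucleus, and the latter are translated on cytosolic ribosomes and imported. At the end of organogenesis the chambers are formed, and the heart continues to grow by division of its muscle cells while fibroblasts, vessels and the outer epicardial layer expand.

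The total count ranged from 20930367 to 35857434 per heart library, and levels are given as CPM, which scales the counts to the library size adjusted by edgeR's TMM factors. The heart label held against its markers, as the 36 sarcomere genes tested summed to between 47920 and 68180 CPM in every heart, while the 9 liver cell markers tested summed to between 22.9 and 48.1 CPM. Other tissues were not absent to that degree. The 4 skeletal muscle markers tested summed to between 368 and 1116 CPM, most of it TNNT3, and the 4 of lung and gut to between 136 and 235 CPM. The 12 markers of erythroid cells summed to between 543 and 1258 CPM and the 11 of white blood cells to between 76.9 and 133 CPM, with the ranges of both transfer groups overlapping, and none of the genes of these lists passed the test on weight. Mitochondrially encoded genes took 45.1%, 57.3%, 23.5%, 41.5% and 40.9% of the counts in fetuses 1 to 5, and 39.0%, 25.5%, 28.5% and 17.1% in fetuses 6, 8, 9 and 10. Fetus 3 stood apart from its group with a low share, and the share fell with weight (r = −0.76, exact permutation p = 0.0187; rho = −0.72, exact permutation p = 0.0369; two-sided, n = 9, 1 relation tested). Leaving out fetuses 9 and 10, whose weights were most distant from the median, gave r = −0.64 (exact permutation p = 0.124), which did not pass the threshold. With any 1 heart removed, r ranged from −0.91 (fetus 3) to −0.65 (fetus 10), and the exact permutation p was 0.0506 without fetus 2 and 0.0773 without fetus 10.

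**Figure D1:**
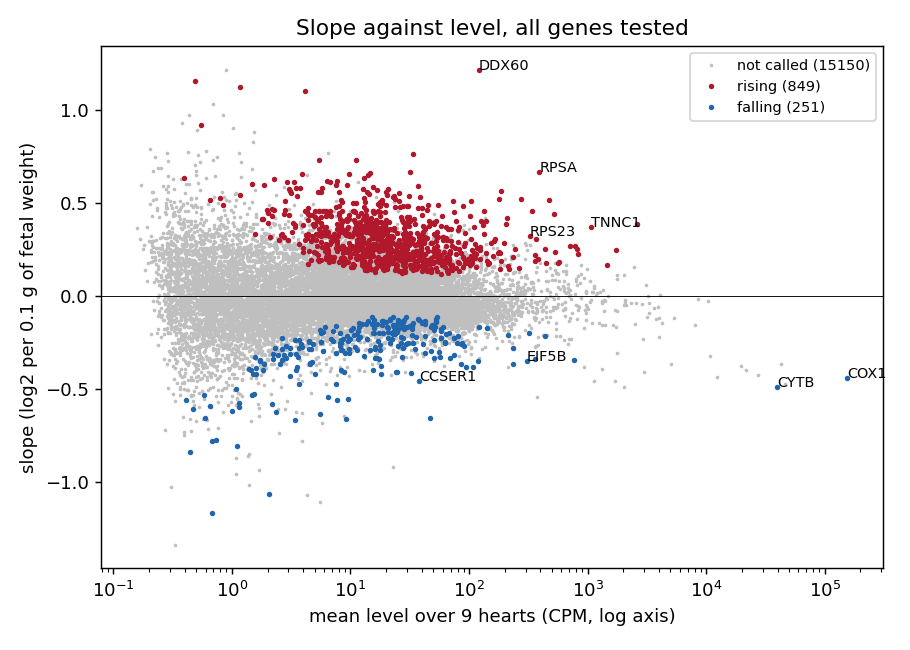
Slope with fetal weight (vertical axis, log2 units per 0.1 g) against the mean level over the 9 hearts (horizontal axis, CPM, log scale) for the 16250 genes tested. Red points are the 849 rising genes and blue points the 251 falling genes, which include the very abundant mitochondrially encoded COX1 and CYTB, and grey points did not pass the test.

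The calls lie close to the threshold. The adjusted p-values of all 1100 called genes were between 0.0395 and 0.0499, and at an unadjusted p-value under 0.05 there were 2666 rising and 2068 falling genes. The rising genes had a median slope of 0.28 (10th to 90th percentile 0.17 to 0.48) and the falling genes −0.25 (−0.50 to −0.15), against −0.014 over all genes tested. With the mitochondrially encoded genes left out of the normalization, 727 genes rose (4.47%) and 204 fell (1.26%), and all of them were among the 849 and 251. The slopes themselves barely moved, with a median over all genes of −0.012. TMM with and without these genes scaled the hearts almost alike, so the second fit is not an independent check of the first. With library totals as the only scaling, the median slope of all genes shifted to 0.12, and 0 genes passed in either direction (4299 rising and 172 falling at an unadjusted p-value under 0.05), so the balance between rising and falling genes depends on the scaling.

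Single hearts decided the number of calls. No gene passed in either direction when fetus 1, 2, 4, 5, 8 or 10 was left out. Without fetus 3 there were 2335 rising and 1562 falling genes, without fetus 6 there were 621 and 130, and without fetus 9 there were 1250 and 353. All 849 rising and all 251 falling genes kept the sign of their slope in each of these 9 fits. Genes whose sign had turned would have been unlikely to pass in the full set, so this count follows in part from the choice.

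**Figure D2:**
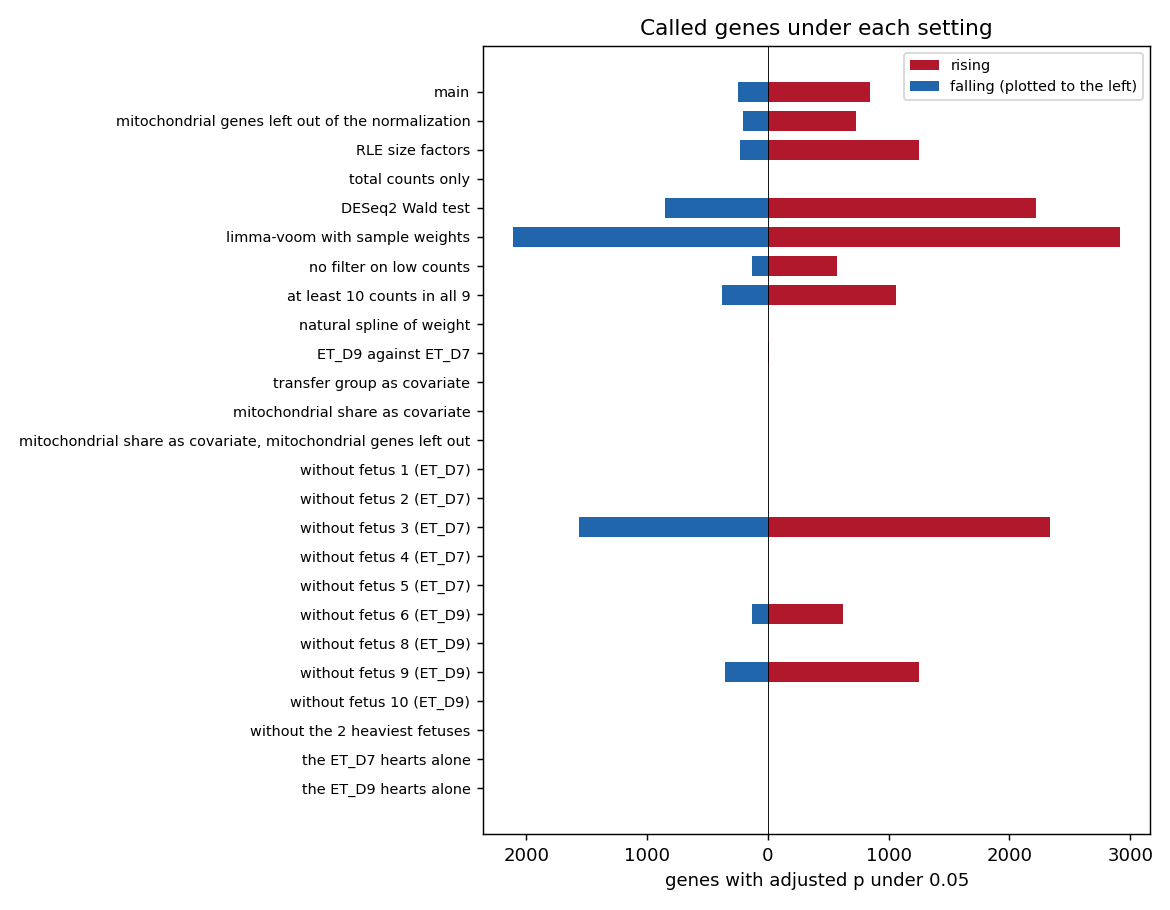
Number of genes with an adjusted p-value under 0.05 (horizontal axis), rising to the right in red and falling to the left in blue, under each setting (vertical axis). The first row is the fit used in the text, with 849 rising and 251 falling genes, and the rows without bars are fits with few or no calls, among them the fits without fetus 1, 2, 4, 5, 8 or 10.

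Some nuclear genes for the respiratory chain rose with weight. Of the 78 nuclear subunits of oxidative phosphorylation tested, 29 rose (37.2%, against 5.22% of all genes) and none fell, while 51 had a slope above 0, and the median slope was 0.087. By complex, 11 of 36 subunits of complex I rose, 1 of 4 of complex II, 5 of 9 of complex III, 7 of 14 of complex IV and 5 of 15 of ATP synthase. NDUFC2 (Entrez 338046), an accessory subunit of complex I, was at 21.9, 17.4, 38.2, 22.8 and 27.4 CPM in the ET_D7 hearts, in order of weight, and at 48.9, 71.5, 60.2 and 101 CPM in the ET_D9 hearts. The groups did not overlap, and fetus 10 was the highest of all. Its slope was 0.49 (SE 0.076, adjusted p = 0.0395 in edgeR's quasi-likelihood test). In bulk tissue, more cells of a type and more RNA per cell cannot be told apart.

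The Rieske iron-sulfur protein of complex III, UQCRFS1 (Entrez 287020), stood at 80.0, 62.8, 120, 91.4 and 87.5 CPM in ET_D7 and at 147, 199, 171 and 288 CPM in ET_D9, a slope of 0.40 (SE 0.064). COX5A (Entrez 444878), a structural subunit of complex IV, was at 51.9, 33.7, 98.9, 50.8 and 59.7 CPM in ET_D7 and at 89.9, 144, 124 and 278 CPM in ET_D9, a slope of 0.51 (SE 0.087). Here fetus 3 of ET_D7 was above fetus 6 of ET_D9, so the groups overlapped. ATP5F1C (Entrez 327668), the gamma subunit that forms the rotating shaft of ATP synthase, was at 5.60, 3.04, 12.9, 4.10 and 6.65 CPM in ET_D7 and at 12.6, 19.8, 15.8 and 50.8 CPM in ET_D9, a slope of 0.66 (SE 0.13). It was the steepest of the 78, and fetus 10 had more than any other heart.

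Others of this group rose along the same order of complexes. The complex I subunit NDUFB11 (0.48, SE 0.082), the membrane anchor of succinate dehydrogenase SDHD (0.13, SE 0.032), the complex III hinge protein UQCRH (0.40, SE 0.083), the complex IV subunit COX7B (0.26, SE 0.046) and the membrane ring subunit of ATP synthase ATP5MC3 (0.43, SE 0.093) all passed the test. So did COX7A2L (0.51, SE 0.078), which joins complexes III and IV into supercomplexes, and UQCC3 (0.48, SE 0.078), an assembly factor of complex III. The other end of the list was COX7C, a subunit of complex IV, with a slope of −0.21 (SE 0.087, adjusted p = 0.133). The summed level of the 78 genes was 9095 to 11800 CPM in ET_D7 and 11180 to 12330 CPM in ET_D9, so the groups overlapped in the sum. Leaving out the mitochondrially encoded genes from the normalization left 28 of the 29 genes called.

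**Figure D3:**
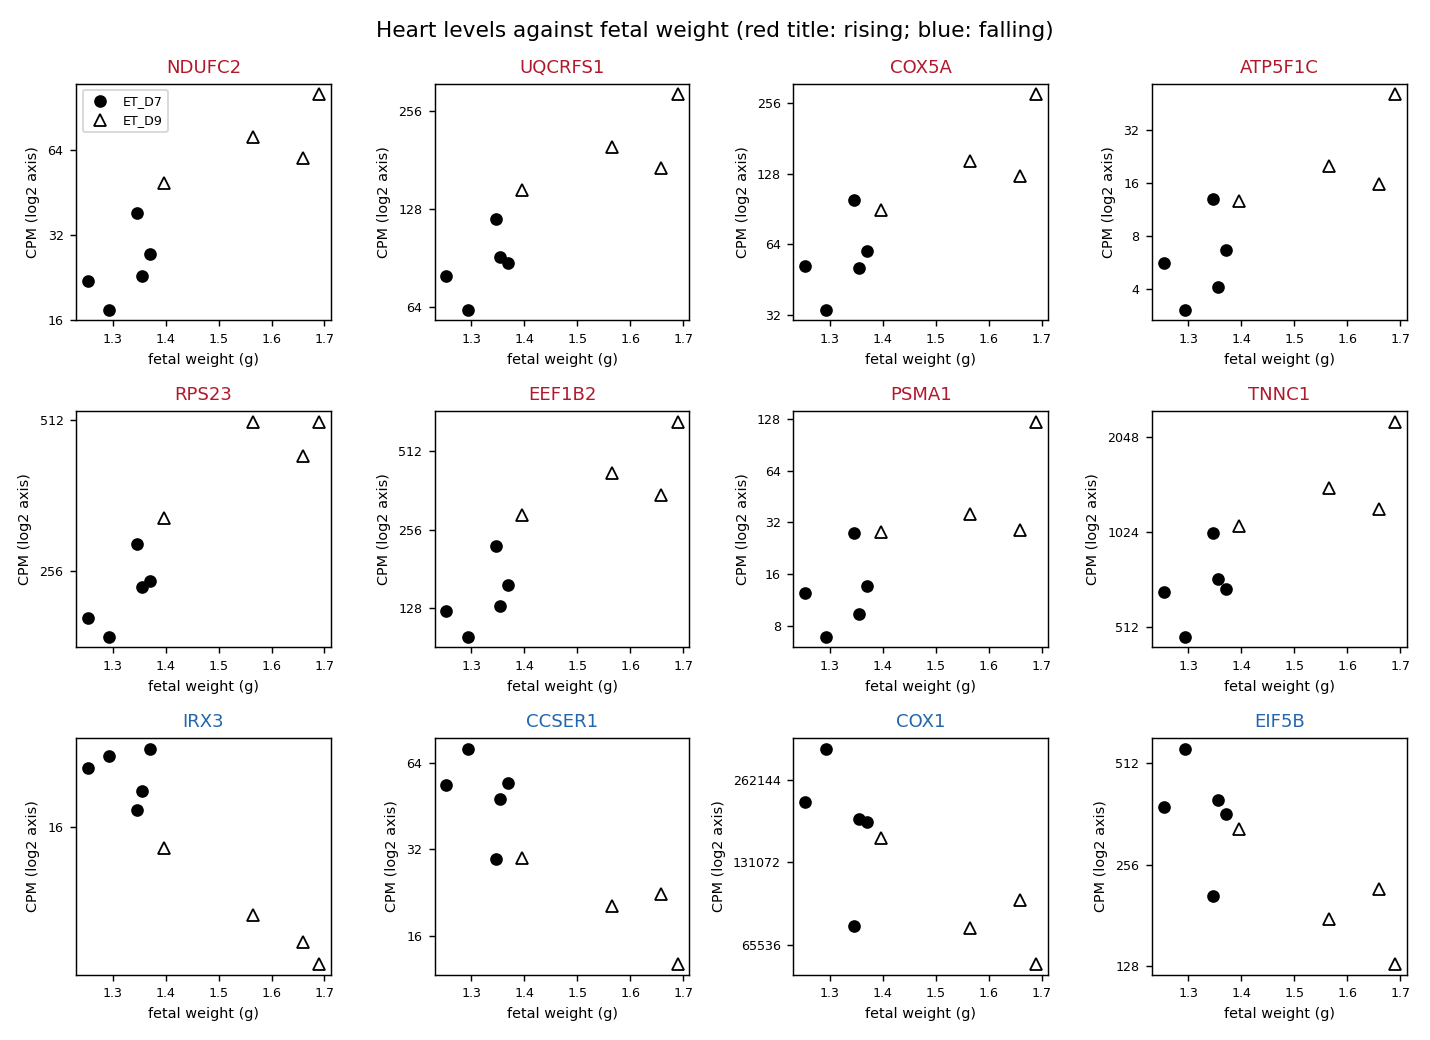
Level in each heart (vertical axes, CPM, log2 scale) against fetal weight (horizontal axes, g) for 8 rising genes (red titles) and 4 falling genes (blue titles). Filled circles are the 5 ET_D7 hearts and open triangles the 4 ET_D9 hearts, and fetus 3, at 1.346 g, lies above the other ET_D7 hearts in the rising genes shown.

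Of the 13 protein-coding genes of mitochondrial DNA, 2 fell (15.4%, against 1.54% of all genes) and none rose. All 13 had a negative slope, from −0.49 to −0.31 (median −0.40), but the other 11 did not pass the test. COX1 (Entrez 3283879), the catalytic subunit of complex IV, took 218100, 339900, 76720, 189100 and 184200 CPM in ET_D7 and 160700, 75620, 95600 and 56040 CPM in ET_D9 (slope −0.44, SE 0.11, adjusted p = 0.0470 in edgeR's quasi-likelihood test). CYTB (Entrez 3283889), the electron-carrying core of complex III, had a slope of −0.49 (SE 0.13, adjusted p = 0.0491), and COX3, another subunit of complex IV, one of −0.47 (SE 0.13, adjusted p = 0.0516). For COX1 the groups overlapped through fetus 3, which was lower than all ET_D9 hearts but fetuses 8 and 10. When they did not enter the normalization, COX1 alone of the 13 remained called, and CYTB had an adjusted p-value of 0.0503.

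Since the mitochondrially encoded share fell as weight rose, it was set against the called genes heart by heart. The median rising gene deviated from its mean over the hearts by −0.45, −0.65, 0.15, −0.39 and −0.33 log2 units in fetuses 1 to 5 and by 0.15, 0.44, 0.29 and 0.88 in fetuses 6, 8, 9 and 10. The median falling gene deviated by 0.31, 0.59, 0.02, 0.17 and 0.25, and by 0.0017, −0.38, −0.37 and −0.59. The rising genes were lowest in fetus 2, which had the highest mitochondrial share. In fetus 3, with a share of 23.5%, they were as high as in fetus 6 and below those of fetuses 8 and 9 (25.5% and 28.5%). Single hearts cannot weigh the share against weight. In a fit on the share in place of weight, chosen after seeing the data and with the mitochondrially encoded genes left out of the normalization, 3342 genes were lower (20.6%) and 2956 higher (18.2%) with a higher share. Of the 849 rising genes, 830 were among the former, and 200 of the 251 falling genes were among the latter. The called genes were chosen in these same hearts, where the share fell with weight, so this overlap follows in part from the choice. With the share as a covariate beside weight, 0 genes passed for weight (405 rising and 1005 falling at an unadjusted p-value under 0.05). Weight and the share were not separated by these 9 hearts, and the part of the share in the slopes cannot be told apart from that of weight.

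**Figure D4:**
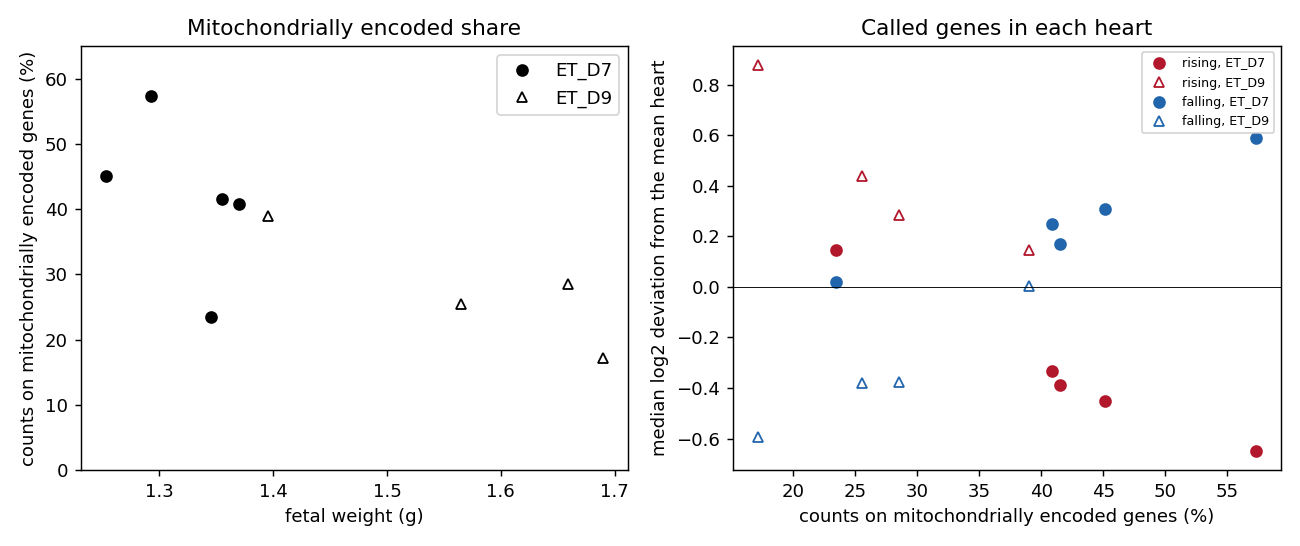
Left, percent of counts on mitochondrially encoded genes (vertical axis) against fetal weight (horizontal axis, g) in the 9 hearts. Right, median log2 deviation from the mean over hearts (vertical axis) of the rising (red) and falling (blue) genes against the same percentage (horizontal axis), with ET_D7 as circles and ET_D9 as triangles, where the rising genes were highest in fetus 10 at 17.1% and lowest in fetus 2 at 57.3%.

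Of the 77 cytosolic ribosomal proteins tested, 19 rose (24.7%, against 5.22% of all genes) and none fell, with a median slope of 0.053. RPS23 (Entrez 540129), a protein of the decoding centre of the small subunit, was at 206, 189, 290, 237 and 245 CPM in ET_D7 and at 326, 508, 434 and 509 CPM in ET_D9, with no overlap of the groups. RPSA (Entrez 281898), a small subunit protein that is also known as a laminin receptor, was at 141, 97.7, 308, 108 and 191 CPM in ET_D7 and at 387, 550, 448 and 1298 CPM in ET_D9. It had the steepest slope of the family (0.66, SE 0.12). RPS12 (0.44, SE 0.075), RPL30 (0.46, SE 0.089), RPL9 (0.27, SE 0.048), RPL39 (0.30, SE 0.049) and RPLP0 (0.56, SE 0.11), a protein of the stalk that recruits elongation factors, also rose. At the other end RPL5, which binds the 5S ribosomal RNA, had a slope of −0.22 (SE 0.090, adjusted p = 0.132). Ribosomal protein genes have many processed copies in the genome, and the counting options for reads that match several places were not given, so their levels are uncertain.

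Of the 36 translation factors tested, 10 rose (27.8%, against 5.22% of all genes) and 1 fell (2.78%, against 1.54%). With the mitochondrially encoded genes left out of the normalization, 7 rose and 1 fell. EEF1B2 (Entrez 520875), which reloads elongation factor 1A with GTP, was at 125, 99.2, 222, 131 and 157 CPM in ET_D7 and at 292, 421, 349 and 666 CPM in ET_D9, a slope of 0.52 (SE 0.082). The groups did not overlap. Elongation factor 1A itself, EEF1A1, rose by 0.39 (SE 0.099, adjusted p = 0.0481), but not with the mitochondrially encoded genes left out of the normalization (adjusted p = 0.0501, edgeR's quasi-likelihood test in both cases). The initiation factors EIF1AX (0.37, SE 0.062), which helps to select the start codon, and EIF3F (0.45, SE 0.084) rose as well. The member that fell was EIF5B (Entrez 532850), the GTPase that joins the ribosomal subunits, named after its value was seen. Its level was 380, 564, 207, 399 and 361 CPM in ET_D7 and 328, 177, 217 and 130 CPM in ET_D9 (slope −0.35, SE 0.082, adjusted p = 0.0419).

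Ribosomes inside the mitochondrion did not share this pattern of counts. Of 75 mitochondrial ribosomal proteins, 5 rose (6.67%) and none fell, which is near the 5.22% of all genes, and the median slope was −0.027. Among the 5 were MRPS28 (0.61, SE 0.13), MRPL50 (0.31, SE 0.054) and MRPL1 (0.38, SE 0.084). MRPS36 (0.65, SE 0.11), which carries a ribosomal name and is known as a component of the 2-oxoglutarate dehydrogenase complex, was among the 12 rising genes with the smallest p-values.

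Genes of protein folding and degradation rose in 16 of 69 cases (23.2%, against 5.22% of all genes) and fell in none. With the mitochondrially encoded genes left out of the normalization, 14 rose, 9 of them in the endoplasmic reticulum group. In the endoplasmic reticulum group 11 of 31 rose, among them P4HB (0.23, SE 0.052), a disulfide isomerase, SEC63 (0.28, SE 0.061), which serves the import of proteins into the reticulum, and EDEM1 (0.33, SE 0.066), which directs misfolded glycoproteins to degradation. Of 30 proteasome genes 5 rose (16.7%), and PSMA1 (Entrez 515503), a subunit of the alpha ring, was the steepest. It was at 12.3, 6.88, 27.7, 9.34 and 13.7 CPM in ET_D7 and at 28.1, 35.9, 28.8 and 124 CPM in ET_D9 (slope 0.66, SE 0.13). Fetus 10 was far above the other 8 hearts, which were at 35.9 CPM or less. PSMA4 (0.54, SE 0.095) and the deubiquitinase of the proteasome lid PSMD14 (0.30, SE 0.055) also rose. None of the 8 subunits of the TRiC chaperonin, which folds actin and tubulin, passed the test.

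Of 56 genes of fuel use 10 rose (17.9%, against 5.22% of all genes). In the citrate cycle 3 of 18 genes rose (16.7%), SUCLA2 (0.55, SE 0.10), the ATP-forming succinyl-CoA ligase, IDH3A (0.48, SE 0.093), the NAD-dependent isocitrate dehydrogenase, and PDHB (0.18, SE 0.045) of the pyruvate dehydrogenase that feeds the cycle. In fatty acid oxidation 4 of 20 rose (20.0%), ACADM (0.41, SE 0.11), the medium-chain dehydrogenase, ETFA (0.25, SE 0.055), which passes its electrons on, DECR1 (0.18, SE 0.041), and the heart fatty acid binding protein FABP3 (0.15, SE 0.037). In glycolysis 3 of 18 rose (16.7%), LDHA (0.21, SE 0.040), PGAM1 (0.39, SE 0.080) and GPI (0.22, SE 0.046). No gene of the 3 groups fell, and ACADM lost its call with the mitochondrially encoded genes left out of the normalization (adjusted p = 0.0515 in edgeR's quasi-likelihood test).

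The contractile apparatus and the heart regulators mostly did not pass the test. Of 36 sarcomere genes 3 rose (8.33%, against 5.22% of all genes), with a median slope of −0.021, close to that of all genes. TNNC1 (Entrez 509486), the calcium sensor of the cardiac thin filament, was at 661, 479, 1015, 728 and 677 CPM in ET_D7 and at 1067, 1410, 1208 and 2286 CPM in ET_D9 (slope 0.37, SE 0.070, adjusted p = 0.0395 in edgeR's quasi-likelihood test). No ET_D9 heart was below an ET_D7 heart. MYLK3 (0.25, SE 0.050), the cardiac kinase of myosin light chain, and SMPX (0.28, SE 0.058), a small protein of the costamere, were the other 2. The ventricular light chain MYL2 had a slope of 0.16 (SE 0.044) and an adjusted p-value of 0.0568.

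Of 28 genes of calcium handling and excitation 1 rose (3.57%, against 5.22% of all genes), SRI (0.21, SE 0.039), whose product sorcin binds the ryanodine receptor. The calcium pump of the reticulum, ATP2A2, had a slope of 0.28 (SE 0.088) and an adjusted p-value of 0.0750. Of 23 heart transcription factors 2 rose (8.70%), TBX20 (0.23, SE 0.056) and PROX1 (0.22, SE 0.053), both needed for growth of heart muscle. Only 9 of the 23 had a slope above 0, and the median slope was −0.023. None of the 8 atrial and none of the 7 ventricular markers, and none of the 8 genes of the natriuretic peptide system, passed.

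Among markers of other cell types of the heart, those of the endothelium had the most calls. Of 14 endothelial and endocardial markers 4 rose (28.6%, against 5.22% of all genes), the adhesion molecules PECAM1 (0.29, SE 0.058), CDH5 (0.21, SE 0.051) and ESAM (0.21, SE 0.049) and the sialomucin EMCN (0.18, SE 0.041). Only 9 of the 14 had a slope above 0, and the median slope was 0.049. At the other end ENG had a slope of −0.27. The summed level of the 14 was 597 to 813 CPM in ET_D7 and 695 to 838 CPM in ET_D9, so the groups overlapped in the sum. Of 9 epicardial markers 1 rose (11.1%), TBX18 (Entrez 517044), a transcription factor of the epicardium. It was at 3.25, 1.95, 6.66, 3.09 and 3.64 CPM in ET_D7 and 6.39, 9.85, 8.38 and 24.4 CPM in ET_D9 (slope 0.60, SE 0.10). Fetus 3 was above fetus 6, so the groups overlapped. None of 18 fibroblast and valve, 10 smooth muscle and 7 neural crest markers passed. Whether a change in the mixture of cells has a part in the slopes was not tested.

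**Figure D5:**
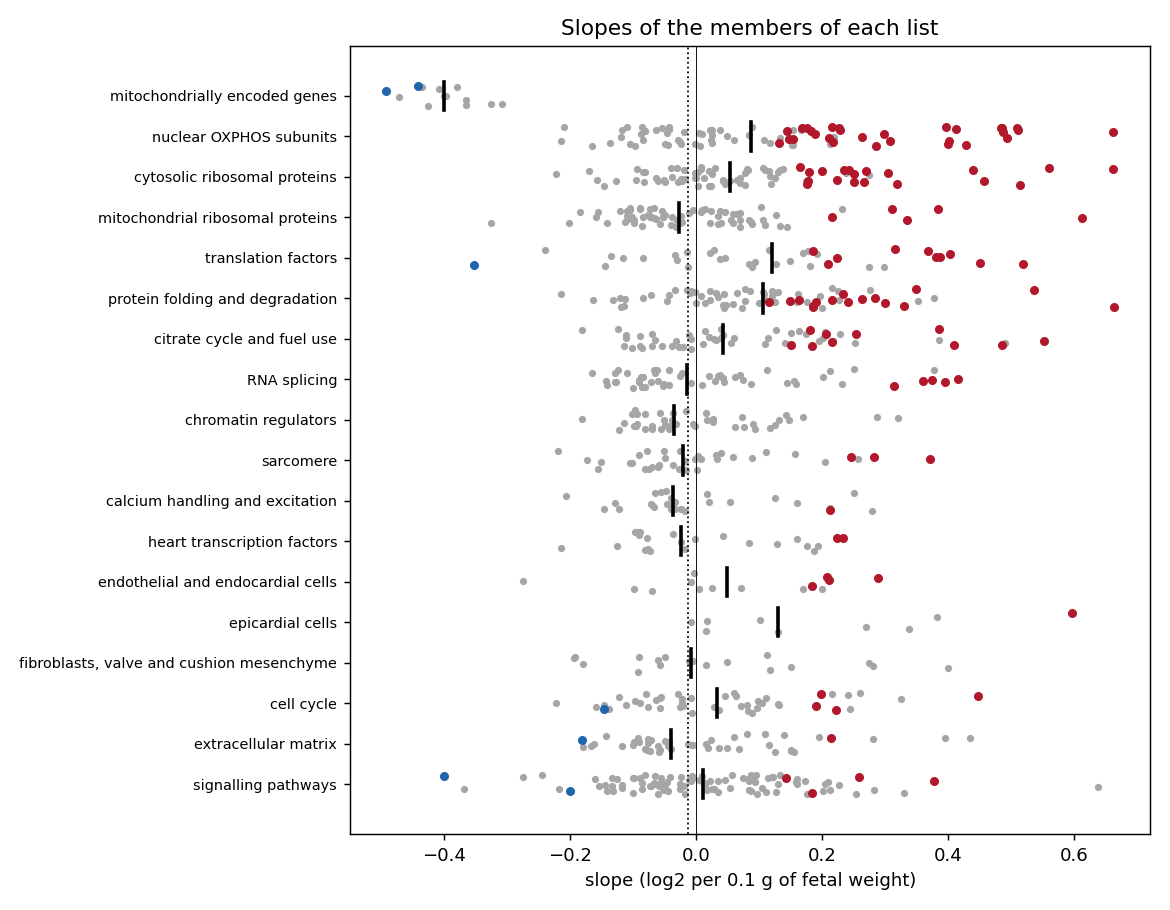
Slope with fetal weight (horizontal axis, log2 units per 0.1 g) of each tested member of 18 gene lists (vertical axis, 1 row per list), with red and blue points for members that rose and fell and grey points for the others. Thick bars mark the median of each list and the dotted line that of all genes (−0.014), and the mitochondrially encoded genes lie to the left of every other list's median.

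Of 46 cell cycle genes 4 rose (8.70%, against 5.22% of all genes) and 1 fell (2.17%, against 1.54%). RFC3 (0.45, SE 0.078), which loads the sliding clamp at the replication fork, MCM6 (0.22, SE 0.056) of the replicative helicase and the mitotic cyclin CCNB1 (0.19, SE 0.047) were among those that rose, whereas KIF23, a kinesin of the dividing midzone, fell (−0.15, SE 0.035). Of 47 matrix genes 1 rose (2.13%, against 5.22% of all genes) and 1 fell (2.13%, against 1.54%). THBS2 rose (0.21, SE 0.049) and COL27A1 fell (−0.18, SE 0.045), the latter not with the mitochondrially encoded genes left out of the normalization (adjusted p = 0.0503 in edgeR's quasi-likelihood test). In TGFB and BMP signalling 4 of 25 rose (16.0%), all of them SMAD genes, namely the inhibitors SMAD7 (0.26, SE 0.055) and SMAD6 (0.18, SE 0.041) and the receptor-activated SMAD2 (0.14, SE 0.037) and SMAD1 (0.38, SE 0.099). The last 2 lost their call with the mitochondrially encoded genes left out of the normalization.

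In insulin and IGF signalling 2 of 23 genes fell (8.70%, against 1.54% of all genes) and none rose. GHR, the growth hormone receptor, was at 1.94, 2.66, 1.07, 2.37 and 1.64 CPM in ET_D7 and at 1.04, 0.821, 0.869 and 0.627 CPM in ET_D9 (slope −0.40, SE 0.10, adjusted p = 0.0495 in edgeR's quasi-likelihood test). The groups did not overlap, though all levels were low. IGFBP5, a binding protein that holds IGF in the matrix, had a slope of −0.20 (SE 0.051, adjusted p = 0.0479). With the mitochondrially encoded genes left out of the normalization, the adjusted p-values were 0.0513 for GHR and 0.0514 for IGFBP5, and neither was called. None of 14 Notch, 21 WNT and 15 hypoxia genes passed. Of 25 immediate early and stress genes 1 rose (4.0%, against 5.22% of all genes), GADD45A (0.46, SE 0.12). Of 52 splicing genes 5 rose (9.62%), SNRPB2 (0.39, SE 0.077), DHX15 (0.37, SE 0.076), HNRNPR (0.31, SE 0.071), SRSF3 (0.36, SE 0.093) and HNRNPH1 (0.42, SE 0.11). The last 2 were not called without the mitochondrially encoded genes in the normalization (adjusted p = 0.0504 and 0.0515 in edgeR's quasi-likelihood test). None of 42 chromatin regulators passed.

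Among the other rising genes with the smallest p-values were PLAU (0.34, SE 0.053), the urokinase that activates plasmin, SFT2D1 (0.42, SE 0.069), a protein of vesicle traffic, and AGPAT5 (0.50, SE 0.084), an acyltransferase of phospholipid synthesis. The steepest included RCN2 (0.76, SE 0.15), a calcium-binding protein of the reticulum, GCNT4 (0.73, SE 0.13), which branches mucin-type sugars, and GET1 (0.73, SE 0.13), a receptor for inserting tail-anchored proteins. The steepest of all named genes was DDX60 (Entrez 112447864), a helicase of the antiviral response, at 7.73, 42.1, 6.60, 14.0 and 2.28 CPM in ET_D7 and at 51.6, 23.5, 857 and 88.9 CPM in ET_D9. It did not follow weight from heart to heart and rests on fetus 9. The slope of DDX60 was 1.21 (SE 0.31, adjusted p = 0.0478) over all hearts and 0.51 (adjusted p = 0.210) without fetus 9, by edgeR's quasi-likelihood test.

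No list had more than 2 falling members. Of the 251 falling genes 38 (15.1%) had no gene symbol or a locus number only, near the 14.0% of all genes, whereas this held for 28 of the 849 rising genes (3.30%). IRX3 (Entrez 540417), a homeobox factor that shapes conduction in the ventricle, was at 20.1, 21.0, 17.1, 18.4 and 21.6 CPM in ET_D7 and at 14.8, 11.4, 10.3 and 9.46 CPM in ET_D9. All ET_D9 hearts were below all ET_D7 hearts, and within ET_D9 the level fell from each fetus to the next heavier one. Its slope was −0.28 (SE 0.040, adjusted p = 0.0395 in edgeR's quasi-likelihood test).

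CCSER1 (Entrez 616908), a very long gene of unclear function, was at 53.9, 71.9, 29.6, 48.1 and 54.7 CPM in ET_D7 and at 29.9, 20.4, 22.3 and 12.7 CPM in ET_D9 (slope −0.46, SE 0.081). Only fetus 3 among the ET_D7 hearts reached down to ET_D9. Other transcriptional regulators that fell were KLF8 (−0.34, SE 0.058), TSHZ2 (−0.29, SE 0.051), the EGR corepressor NAB2 (−0.19, SE 0.034), MDFI (−0.21, SE 0.036), an inhibitor of myogenic factors, and the retinoid receptor RXRG (−0.55, SE 0.13). AGTPBP1 (−0.26, SE 0.043), which trims glutamates from tubulin, and CEP85L (−0.22, SE 0.037), a centrosomal protein, fell together with TTC28 (−0.27, SE 0.046) and TCP11 (−0.20, SE 0.036). NKAIN2 (−0.28, SE 0.047), a partner of the sodium pump, NAALADL2 (−0.23, SE 0.041), CSMD1 (−0.56, SE 0.13), a large membrane protein with complement-type domains, and the mitochondrial hydrolase NUDT8 (−0.42, SE 0.10) completed the falling genes that the rule named.

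The transfer groups were separated without overlap for 445 of the 849 rising genes, where every ET_D9 heart was higher, against 1075 of all genes tested (6.62%), and for 106 of the 251 falling genes, where every ET_D9 heart was lower, against 567 of all genes (3.49%). These counts come from the same hearts that gave the calls. A comparison of ET_D9 with ET_D7 in place of weight gave 6 higher (0.0369%) and 2 lower genes (0.0123%), with 2372 and 1622 at an unadjusted p-value under 0.05. With the group as a covariate beside weight, 0 genes passed (250 rising and 321 falling at an unadjusted p-value under 0.05). The slope with weight did not differ between the groups for any gene at an adjusted p-value under 0.05 in edgeR's quasi-likelihood test (0 genes, 199 at an unadjusted p-value under 0.05). Within ET_D7 alone and within ET_D9 alone no gene passed, with 151 rising and 0 falling and with 509 rising and 456 falling genes at an unadjusted p-value under 0.05.

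Whether the slopes belong to the heart was tested on fetuses that also gave another organ, with the fetus as a block. Against the gonads (8 fetuses), 0 genes differed in slope (960 higher and 273 lower in the heart at an unadjusted p-value under 0.05 in edgeR's quasi-likelihood test). In the gonads the slope was above 0 for 674 of 846 rising genes (79.7%) and for 63 of 250 falling genes (25.2%), against 49.0% of all genes. In the liver it was above 0 for 58.3% of the rising and 34.3% of the falling genes tested there, against 47.4% of all genes. The organs come from the same fetuses and the shares have no test. Against the liver (8 fetuses), the slope was higher in the heart for 219 genes (1.35%) and lower for 36 (0.222%). The former held 44 rising genes and 1 falling gene, and the latter 4 falling and 2 rising genes. The called genes were chosen by their slope in these same hearts, so this overlap follows in part from the choice.

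The liver comparison rests partly on the liver counts. Of the 219 genes, 110 had at most 2 counts in some liver library and at least 100 in another, a limit chosen after seeing the data, and of the 44 rising genes 6 did. PLAU was 1 of them, with 623, 633, 167, 128 and 298 counts in the livers of fetuses 1 to 5 and 1, 0 and 1 counts in those of fetuses 8, 9 and 10. COX5A had 479, 503, 268, 208 and 608 counts in the first and 33, 81 and 120 in the second group of livers, so its heart slope was above its liver slope (1.16 higher, SE 0.21, adjusted p = 0.0297 in edgeR's quasi-likelihood test). Without fetus 9 no gene differed between heart and liver.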

How the data were processed

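Heart RNA was sequenced from stranded mRNA libraries. Per the labels and the methods, reads were checked with FastQC 0.11.9 and trimmed by Trimmomatic, and the authors then used STAR 2.7.0b for mapping to ARS-UCD1.3, the bovine genome, and featureCounts (Subread 2.0.3) for the gene counts. The deposited values are whole-number counts per Entrez gene, for which no normalization is stated, and the counting options are not given in the sources used here. Symbols were taken from a RefSeq table of another assembly, ARS-UCD2.0, which matched 31630 of 35092 identifiers (15568 of the 16250 tested), so no coordinates are given.

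The counts were normalized by TMM and fitted in edgeR 4.0.16 (glmQLFit, glmQLFTest) with weight as a linear term, and p-values were adjusted by Benjamini-Hochberg over 16250 genes. In the second normalization, all 37 mitochondrially encoded genes were left out of the library sizes and factors. The test was first tested on simulated data. DESeq2, limma-voom with sample weights, other scalings, filters, covariates, a spline and leaving out each fetus were alternatives. The organs were compared by the interaction of organ and weight, with the fetus as a block, since organs with the same fetus number in the labels came from the same animal. Named genes were, in each direction, the 12 called genes with the smallest p and the 6 steepest with a symbol and a mean of at least 5 CPM, in each list up to 4 members with the smallest p per role, and RPS23. Some of them are not reported here. The members and the gene lists were chosen with earlier results of these data known. Each heart came from 1 fetus, so p-values measure the spread between fetuses.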

Additional observations from a re-analysis of the deposited data

Results flagged for a closer look

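In 208 groups of 4 or 5 hearts, 1 heart was tested for lying far from the others of its transfer group (Dixon's ratio of its gap to the range, on log2 CPM for genes), and chance gives about 1 flag in 20 groups. The flags listed here are fewer than that rate gives, so they are not set apart from chance. Of the 101 genes, 96 had passed the test on weight, which in rising genes favours a high value in fetus 10, the heaviest. Fetus 10 was far above the other ET_D9 hearts in RCN2 (0.878), PSMA1 (0.836), MRPS28 (0.893), PECAM1 (0.868) and CDH5 (0.871). Fetus 3 was far above the other ET_D7 hearts in PSMD14 (0.815), SEC63 (0.934) and MCM6 (0.820). These hearts had the lowest mitochondrially encoded share of their groups, 17.1% and 23.5%, and the part of the share in these values was not tested. Neither the share itself, nor the total count, nor the TMM factor had such a heart.

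The slope differed between heart and liver for 219 genes that were higher and 36 that were lower in the heart. Among the genes named in the text, the heart slope was above the liver slope by 0.97 log2 units per 0.1 g for NDUFC2 (adjusted p = 0.0311), 3.06 for PLAU (adjusted p = 0.00421), 1.16 for COX5A (adjusted p = 0.0297) and 0.63 for SMAD7 (adjusted p = 0.0284), all by edgeR's quasi-likelihood test. In the liver alone their slopes were −0.43, −2.69, −0.58 and −0.38 in this order, and in the heart alone 0.49, 0.34, 0.51 and 0.26. The differences thus rest in part on a fall in the liver, and no gene differed when fetus 9 was left out.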

How the results depend on the processing

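The counts of rising and falling genes were 849 and 251. They were 2222 and 851 with DESeq2, 2916 and 2106 with limma-voom, 6 and 2 for ET_D9 against ET_D7, and 0 and 0 with total counts only, a spline of weight (980 and 318 at an unadjusted p-value under 0.05), the transfer group or the mitochondrial share as a covariate (also with the mitochondrially encoded genes left out, an alternative chosen after seeing the data), without the 2 heaviest fetuses, or in either group alone. The spline gives no direction, so its genes were split by the sign of the linear slope. Falling genes were 135 with no filter (571 rising) and 381 with at least 10 counts in all 9 hearts (1062 rising). RLE factors gave 1248 and 228. Leaving out 1 fetus gave 0 to 2335 rising and 0 to 1562 falling genes.

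Without the fetus block, the heart slope was higher than in the liver for 631 genes and lower for 190. Leaving out 1 fetus gave 0 (without fetus 9) to 390 (without fetus 3) and 0 to 92 genes, with 42 and 1 without fetus 10, 89 and 13 without fetus 8, and 120 and 9 without fetus 2. The difference of slope between heart and gonads gave 0 genes under each alternative, and the difference of slope between the transfer groups gave 0 genes with the mitochondrially encoded genes left out of the normalization. No paired analysis was possible for weight in the heart because each fetus gave 1 heart. The relation of mitochondrial share and weight had r = −0.64 without the 2 fetuses farthest from the median weight, and from −0.91 (without fetus 3) to −0.65 (without fetus 10) without 1 fetus, and its exact permutation p was above 0.05 without fetus 2 or fetus 10.

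Of the 101 genes named, none changed sign under another scaling, test, filter or left-out fetus. Since 96 of them had been called in these same 9 hearts, this follows in part from the choice. With total counts only, those 96 kept their sign but lost their call. In ET_D7 alone the slope of DDX60 was −1.96 and the slope of ATP2A2 −0.20. With the mitochondrial share as a covariate, the slope of COX3 was 0.0047, the slope of COX7C 0.096 and the slope of RPL5 0.094, and with the mitochondrially encoded genes also left out of the normalization 0.0037, 0.095 and 0.093. The cause was not tested. With 9 hearts and calls just under the threshold, genes that missed it are not shown to be unchanged.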
